A study of Flaveria robusta and Flaveria ramosissima and Flaveria trinervia with 18 samples.

Results

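The genus Flaveria, in the daisy family, has C3, C3–C4 intermediate and C4 species. Transcript abundance in newly expanded mature leaves of the C4 plant F. trinervia was compared with that of the C3–C4 intermediate F. ramosissima, both under high light (1400 µmol m−2 s−1). The comparison was made across rows of the TPM table (a share of the library total after allowing for gene length) that reached a mean of at least 1 TPM in each of the 2 groups. This rule took 11539 of 30040 rows. They comprised 6229 of 15100 rows numbered up to 19000 and 5310 of 14940 rows numbered above 19000, and the 2 blocks of numbers are given separately below. Each group held 3 libraries from such leaves. The series also holds the C3 species F. robusta and, for each of the 3 species, 3 libraries under control light (500 µmol m−2 s−1), which makes 18 libraries in 6 groups. The labels name both a greenhouse and a growth chamber, and how long the plants stood under high light is not stated. The labels do not say whether the 3 libraries of a group came from separate plants, so the p-values measure only the spread between these libraries, which may be technical.

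In C4 photosynthesis, CO2 is first fixed into C4 acids in the mesophyll and released again around Rubisco in the bundle sheath, and the transcripts of the enzymes and transporters of this cycle are among the most abundant of a C4 leaf. C3–C4 intermediates such as F. ramosissima release photorespiratory CO2 in the bundle sheath and hold part of the C4 cycle. High light raises the demand on both pathways and on photoprotection. The table names its rows only by a gene number, and the files do not pair these numbers with gene names. The members of these pathways, and the markers of leaf cells, could therefore not be looked up. The rows are described by abundance, by number and by 4 printed examples. Each kind of photosynthesis was held by 1 species, so the species and the pathway cannot be told apart. In whole leaves, fewer cells of a type and less RNA per cell cannot be told apart either.

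The 6 libraries fell clearly into their species. Across members, the correlation of log2(TPM + 1) was 0.967 to 0.995 between libraries of F. trinervia, 0.934 to 0.953 between libraries of F. ramosissima and 0.722 to 0.745 over the 9 pairs between the species. The median SD of a member was 0.166 in F. trinervia and 0.296 in F. ramosissima on the log2 scale, so the intermediate varied more between its libraries in both blocks (0.297 up to 19000 and 0.293 above). Read depth is unknown, since TPM keeps none.

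The members took nearly all of the listed TPM in the C4 species and less in the intermediate. In F. trinervia high light 1, 2 and 3 their share of the listed TPM was 96.9%, 96.8% and 96.9%, and in F. ramosissima high light 1, 2 and 3 it was 81.7%, 82.7% and 81.2%. The groups did not overlap, and the difference was 15.0 percentage points. The classes of rows were set on the means of these same libraries, so their shares are a description from which no test is read. Most of the rest in F. ramosissima was taken by 5776 rows that reached 1 TPM in that species only, at 17.8% ± 0.701 of listed TPM against 0.0541% ± 0.00385 in F. trinervia (SD, n = 3). Of these rows, 4715 (81.6%) were numbered above 19000. Their 10 most abundant, at means of 1297 to 10028 TPM in F. ramosissima, held 20.1% of the TPM of this class. The reverse class, with 1 TPM or more in F. trinervia only, held 2525 rows with 2.92% ± 0.0428 of its TPM. A library of F. ramosissima had 16735 ± 440 rows at 1 TPM or more and one of F. trinervia 14011 ± 170.

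The 2 blocks of row numbers differed in how they covered the species. Among rows numbered up to 19000, 25.1% were listed at 0 in all 6 libraries of F. ramosissima, 26.1% in all 6 of F. trinervia and 24.2% in all 6 of F. robusta. Among rows numbered above 19000, these shares were 0.0870% (13 rows) in F. ramosissima, 46.7% in F. trinervia and 47.4% in F. robusta. Rows of the higher block thus nearly always had reads in the intermediate and often had none in the other species. The sources used here do not give the reference or the way rows were matched between species, and the part of either in the species difference was not tested. Rows of closely related gene copies can share reads in 1 species and not in another, and such rows cannot be recognised without sequences. Of the members, 1312 were below 1 TPM in F. robusta under high light, 395 up to 19000 and 917 above.

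**Figure D1:**
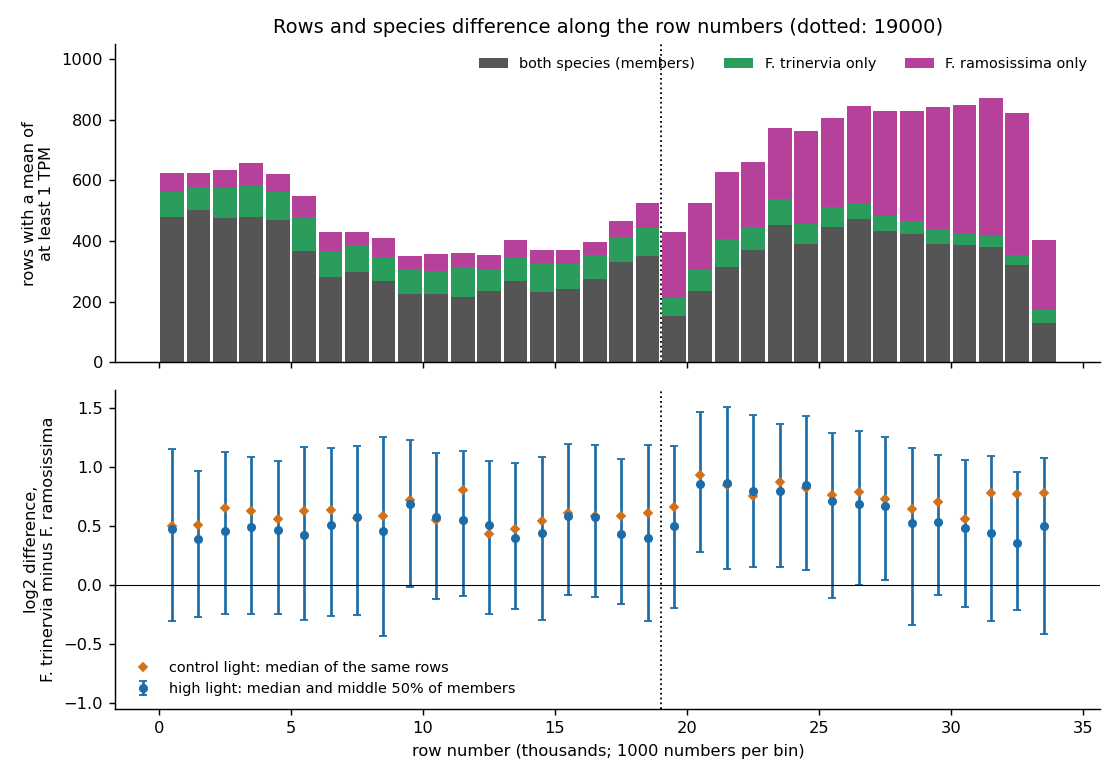
Rows along the gene numbers in bins of 1000. Above, the bars count rows with a mean of at least 1 TPM under high light in both species, in F. trinervia only and in F. ramosissima only; rows of F. ramosissima only number 42 to 83 per bin up to 19000 and 214 to 468 above. Below, blue points and bars give the median and the middle 50% of the members' log2 difference under high light, and orange diamonds the median under control light. The last bin, with 8 members, is left out.

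Few members lay close to the limit of 1 TPM. In 627 members the lower of the 2 group means was under 1.25 TPM, and 692 rows outside had it between 0.75 and 1 TPM (the nearest 0.997 TPM). All 6 libraries reached 1 TPM in 10315 members (89.4%). The group mean of F. ramosissima was carried by a single library at 1 TPM or more in 229 members, and that of F. trinervia in 55.

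The typical member took a larger share of the TPM in the C4 species than in the intermediate. The median log2 difference of F. trinervia minus F. ramosissima was 0.56 over all members (exact permutation p = 0.1, two-sided, the smallest that 3 against 3 libraries can give), 0.49 up to 19000 and 0.64 above. Members were chosen with these same libraries and kept fixed over the assignments. The part of this choice in the median was not tested. The middle 50% of members lay between −0.24 and 1.13 in the lower block and between −0.05 and 1.27 in the higher block. The median deviation of a library from the mean of both groups was 0.27, 0.27 and 0.28 in F. trinervia high light 1, 2 and 3 and −0.19, −0.42 and −0.22 in F. ramosissima high light 1, 2 and 3, so F. ramosissima 2 lay farthest from the C4 libraries. Each value is relative to its library total, of which F. ramosissima held 17.8% in rows that reached 1 TPM in that species only. With the members set to the same sum in each library the median was 0.35, and after median-ratio scaling (libraries set level on rows above 0 in all 18) it was −0.05. Median-ratio scaling sets the typical row above 0 in all 18 libraries level, so by its design it draws the median difference towards 0. The median and the split by direction after it are therefore no test of a shift. The size and the sign of the shift thus depended on the scaling. The main counts by direction are given below as deposited and after median-ratio scaling. Counts with no scaling named are of TPM as deposited.

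**Figure D2:**
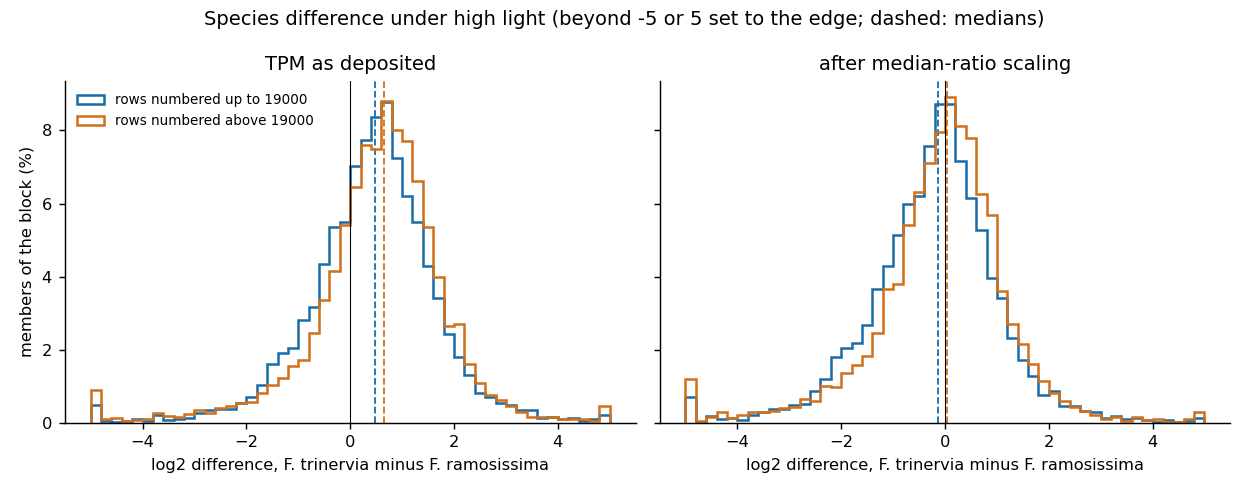
Distribution of the log2 difference under high light, F. trinervia minus F. ramosissima, as a percentage of the members of each block of row numbers. On the left TPM as deposited, with medians (dashed) of 0.49 and 0.64; on the right after median-ratio scaling, with medians of −0.13 and 0.03. Both curves move together, and the higher block stays to the right. The bars at either edge also hold the differences beyond it.

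In the limma model of all 18 libraries, with p-values adjusted over the 23162 rows that reached 1 TPM in at least 1 of the 6 groups, 6753 members passed an adjusted p of 0.05. In F. trinervia 5162 were higher and 1591 were lower, which is 44.7% and 13.8% of members. Over all rows fitted, 32.8% were higher and 30.3% were lower. The latter include rows near 0 in 1 species, which the rule leaves out, and 7203 members had an unadjusted p under 0.05. After median-ratio scaling, 2835 members were called higher and 3436 lower. All 2835 had also been called higher as deposited and all 1591 lower members stayed lower, while 1 member turned from higher to lower. With the members set to the same sum, 4025 were higher and 1968 lower.

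In the block up to 19000, 2586 members were higher and 938 lower (41.5% and 15.1%), and in the block above 19000, 2576 were higher and 653 lower (48.5% and 12.3%). After median-ratio scaling the lower block had 1374 higher and 2031 lower members and the higher block 1461 and 1405. Calls over all rows fitted were not counted by block or after either scaling. The counts of members by block and after scaling are therefore a description. The median difference of the higher block exceeded that of the lower by 0.16 on the log2 scale (exact permutation p = 0.1, the smallest possible). The gap was 0.16 after median-ratio scaling and 0.16 with the members set to the same sum. It was 0.15 to 0.18 when 1 library was left out and 0.18 under control light. Members were chosen with these same libraries. Above 19000 the rule left out 4715 rows at 1 TPM in F. ramosissima only and 868 in F. trinervia only. Up to 19000 these were 1061 and 1657. The part of this rule in the gap was not tested. Within the higher block the median difference was not even. The bins of 1000 numbers from 20001 to 25000 had medians of 0.79 to 0.86, and the bins from 30001 to 33000 had 0.35 to 0.48. The 19 bins up to 19000 lay between 0.39 and 0.69.

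All 3 libraries of F. trinervia lay above all 3 of F. ramosissima in 6019 members (52.2%) and below them in 1967 (17.0%). Over all rows fitted, with both blocks together and as deposited, this was 38.9% above and 33.8% below. Such shares were not counted by block or after scaling, so the counts that follow are a description. By block, 3077 members were wholly above and 1184 wholly below up to 19000, and 2942 and 783 above 19000. After median-ratio scaling, 3304 members were wholly above and 3864 wholly below (1634 and 2277 up to 19000, 1670 and 1587 above). The predominance of higher members thus turned over in all members and in the lower block. Since this scaling sets the typical row level, the turn does not show which direction prevailed.

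**Figure D3:**
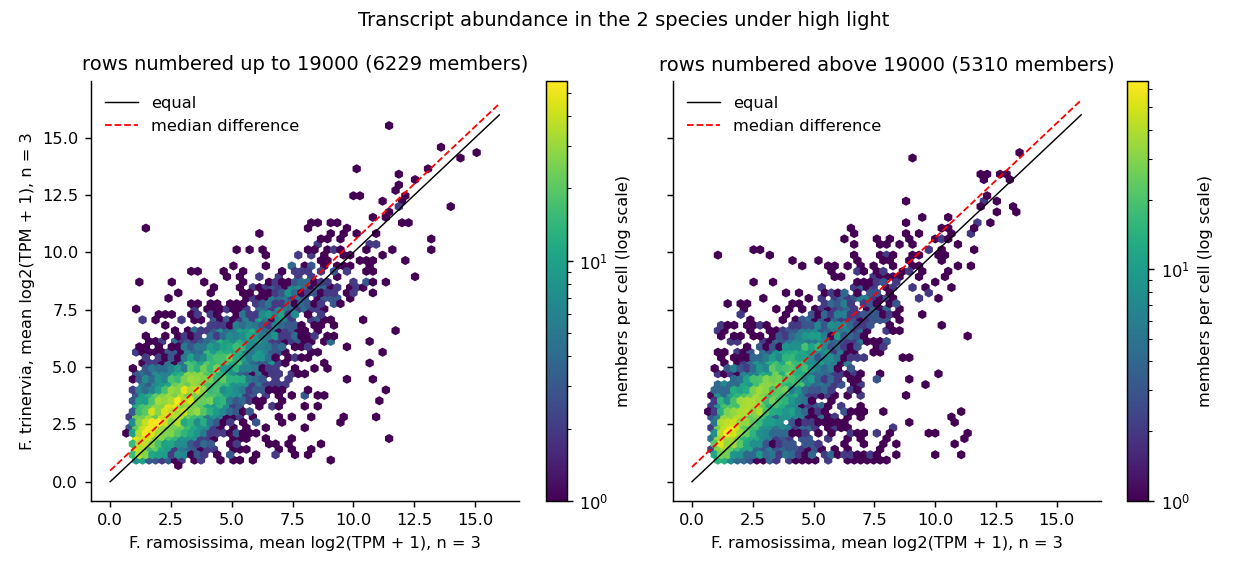
Mean log2(TPM + 1) of each member under high light in F. ramosissima (horizontal) and F. trinervia (vertical), n = 3 libraries each, for both blocks of row numbers. Colour gives the number of members per cell on a log scale, the solid line marks equal levels and the dashed line the median difference (0.49 and 0.64). Members far below the line, abundant in the intermediate and near 1 TPM in the C4 species, lie along the bottom edge of both panels.

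Most called differences were at least 2-fold, and the split of the largest ones by direction depended on the scaling. Of the calls, 31.0% (2092) were under 2-fold on the log2(TPM + 1) scale. At 8-fold or more, 237 members were higher and 198 lower in F. trinervia. Up to 19000 these were 130 higher and 82 lower, while above 19000 they were 107 higher and 116 lower. After median-ratio scaling, 117 members were higher and 334 lower by 8-fold or more, 60 and 155 up to 19000 and 57 and 179 above. Calls of 8-fold or more were not counted over all rows fitted. Rows under 1 TPM in 1 species, which the rule leaves out, are missing from these counts. They are therefore a description of the members only.

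Differences spread wider in the more abundant classes. Among 5722 members with a mean of both groups under 10 TPM the SD of the log2 difference was 0.891, and it was 1.48 among 4872 members between 10 and 100 TPM, 2.30 among 830 between 100 and 1000 TPM and 3.04 among 115 above 1000 TPM. Called differences of 8-fold or more made up 0.0874%, 5.99%, 14.1% and 18.3% of these classes. Every member must hold at least 1 TPM in both groups, and its class was set on the mean of the same 2 groups. The largest possible difference is thus most limited under 10 TPM and grows with each class. The rise in SD and in the 8-fold share is therefore a description and no test of a trait of abundant genes. The direction shifted as well. Of the members called between 10 and 100 TPM, 2375 were higher and 817 lower in F. trinervia, and above 1000 TPM 40 were higher and 45 lower. After median-ratio scaling these counts were 1382 and 1596, and 17 and 54. In the block up to 19000 the median difference was 0.47, 0.55, 0.33 and −0.05 from the lowest to the highest class, and in the block above 19000 it was 0.57, 0.79, 0.72 and 0.20. The higher block thus had the larger median in each class. The 115 members above 1000 TPM took 49.9% ± 1.33 of listed TPM in F. trinervia and 43.5% ± 2.68 in F. ramosissima.

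The most abundant rows were shared only in part. The 100 most abundant members of F. trinervia (means of 1172 to 44426 TPM) and the 100 of F. ramosissima (1241 to 32520 TPM) had 55 rows in common, 55% of each list. The leading members of F. trinervia took 50.6% ± 1.50 of its listed TPM and 35.1% ± 2.24 of that of F. ramosissima. Those of F. ramosissima took 43.7% ± 2.54 of its own and 40.6% ± 0.803 of that of F. trinervia. Their median level was 2319 TPM in F. trinervia, 1530 in F. ramosissima and 939 in F. robusta for the first list, and 1417, 2641 and 1193 TPM for the second. These lists were chosen on the levels shown, so the differences are a description. Of the first list 51 rows and of the second 44 were numbered above 19000.

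The species difference was also measured under control light, in 6 other libraries. There, 5751 members were higher and 1498 lower in F. trinervia, 49.8% and 13.0% of members, where 35.7% and 31.4% of all rows fitted were called. The median difference was 0.67. Across the 11539 members the log2 differences at the 2 light levels correlated with Pearson's r = 0.845 and Spearman's rho = 0.771 (0.830 and 0.769 up to 19000, 0.860 and 0.766 above). Genes are not independent replicates, and both values of a row share its mapping and its length. Both calls of a row also use 1 spread from the same model, so shared calls are not an independent repeat. Of the members called under high light, 5298 were called in the same direction under control light, which is 78.5% of the high-light calls and 73.1% of the control-light calls. A further 75 were called in opposite directions. Of the 237 members higher by 8-fold or more under high light, 148 were so under control light, and of the 198 lower ones 145. By block, 2916 members were higher and 886 lower under control light up to 19000, and 2835 and 612 above. After median-ratio scaling, 3216 members were higher and 3318 lower under control light. Of the calls shared by both light levels, 2696 were in the lower block and 2602 in the higher. Shared calls were not counted over all rows fitted, and neither were control-light calls by block or after scaling. These counts therefore describe the members only.

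**Figure D4:**
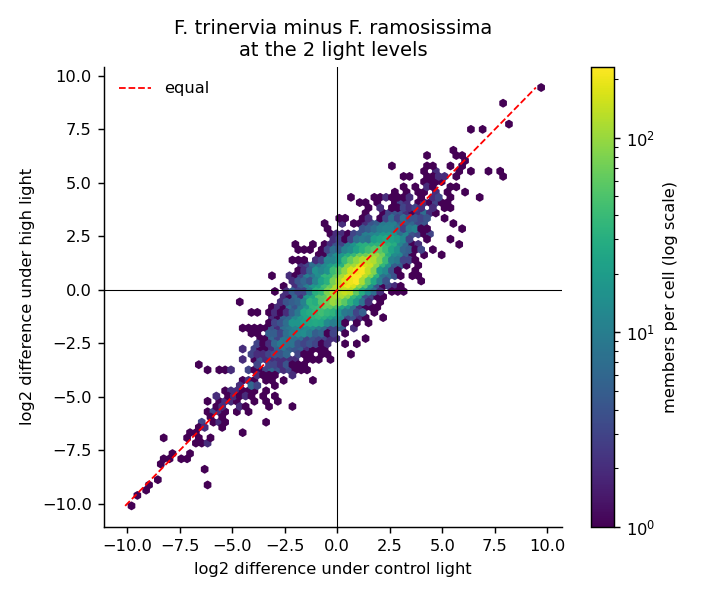
Log2 difference of F. trinervia minus F. ramosissima for each member under control light (horizontal) and high light (vertical), each from 3 against 3 libraries of its own. Colour gives members per cell on a log scale, and the dashed line marks equal differences. The members lie along this line in both directions, with Pearson's r = 0.845.

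A change of the species difference with light was called in few members after adjustment, while 2643 had an unadjusted limma p under 0.05. The change has a larger standard error than a single difference (0.81 against 0.57 for Gene12118). Members not called are therefore not shown to be stable with light. In the same limma model, the high-light difference minus the control-light difference passed an adjusted p of 0.05 in 443 members (3.84%), where 3.02% of all rows fitted passed. Of these, 165 were more positive and 278 more negative under high light, and after median-ratio scaling 352 and 387 of 739. The blocks had 226 (3.63%) and 217 (4.09%). This count changed with single libraries and with the model. Leaving out F. trinervia high light 1, 2 or 3 in turn gave 203, 146 and 197, and leaving out F. trinervia control light 1 or 2 gave 127 and 112. Without F. ramosissima control light 2 it was 727, and with a separate weight for each species it was 135.

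The level of the C3 species F. robusta was set beside those of both species. Among the 5162 members higher in F. trinervia, the median log2(TPM + 1) was 4.11 in F. trinervia, 2.63 in F. ramosissima and 3.62 in F. robusta. The C3 species lay between the others in 2496 of them, above both in 1520 and below both in 1146. Among the 1591 lower members the medians were 2.98, 4.74 and 3.96, with F. robusta between in 600, above both in 401 and below both in 590. Among the 4786 members not called it lay between in 595, above both in 2533 and below both in 1658. Called members were picked for their gap between the 2 species, which leaves more room between them. These positions are thus a description, and they were counted on TPM as deposited only. The 198 members lower by 8-fold or more differed by block. Up to 19000 their median in F. robusta was 5.31, and 19 of 82 were below 1 TPM there. Above 19000 it was 1.38, and 54 of 116 were below 1 TPM. The shares below 1 TPM in F. robusta also differed by block in other members. They were 5.99% up to 19000 and 16.5% above among members not called. Among members higher by 8-fold or more they were 8.46% and 24.3%. A larger share below 1 TPM above 19000 was thus not particular to the lower members, and the difference between blocks was not tested.

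By rule, 1 row was printed for each direction and block, the one with the largest difference among rows called both in the 18-library model and in a fit of the 6 high-light libraries, with groups that did not overlap and at least 5 TPM in each group. This left 1893 candidates up to 19000 and 1551 above. The rows were thus chosen on the same high-light values that are printed for them. Their differences, SEs and adjusted p-values under high light are therefore a description and no test.

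Gene12118, of the lower block, was abundant in the C4 and C3 species and low in the intermediate. It had 456, 398 and 446 TPM in F. trinervia high light 1, 2 and 3 and 5.13, 3.89 and 7.39 TPM in F. ramosissima high light 1, 2 and 3. All C4 libraries lay far above the intermediate, and F. robusta was higher still at 833 ± 267 TPM (SD, n = 3). The log2 difference was 6.10 (SE 0.57, limma adjusted p = 1.86e-07) under high light and 6.11 under control light.

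Gene01199, of the lower block, was abundant in the intermediate. It had 4.89, 5.94 and 7.17 TPM in F. trinervia and 1475, 4174 and 1518 TPM in F. ramosissima under high light. The intermediate was high in every library, and its library 2 stood well above the others. F. robusta lay between the species at 89.6 ± 75.8 TPM. The log2 difference was −8.25 (SE 0.68, limma adjusted p = 3.79e-08) under high light and −6.29 under control light, and the change between the light levels, −1.95, did not pass (limma adjusted p = 0.296).

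Gene25356, of the higher block, was abundant in the C4 species, while its level in the intermediate came from 1 library. It had 1868, 603 and 1649 TPM in F. trinervia and 171, 0 and 0.14 TPM in F. ramosissima under high light. Under control light it had 68.0, 0.06 and 0 TPM in F. ramosissima 1, 2 and 3, so both libraries numbered 1 of this species were high. F. robusta had 226 ± 46.4 TPM. The log2 difference was 7.73 (SE 1.69, limma adjusted p = 0.000982), and 10.17 without F. ramosissima high light 1. The mean of the other 2 libraries was 0.07 TPM, so that without library 1 the row would not have met the 1 TPM rule.

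Gene21098, of the higher block, was near-equal in the C3 and the intermediate species and low in the C4 species. It had 5.96, 7.08 and 8.34 TPM in F. trinervia and 1677, 2201 and 2342 TPM in F. ramosissima under high light, and F. robusta had 1778 ± 380 TPM. All C4 libraries lay far below those of the other species, and the log2 difference was −7.99 (SE 0.23, limma adjusted p = 1.10e-13) under high light and −8.32 under control light.

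**Figure D5:**
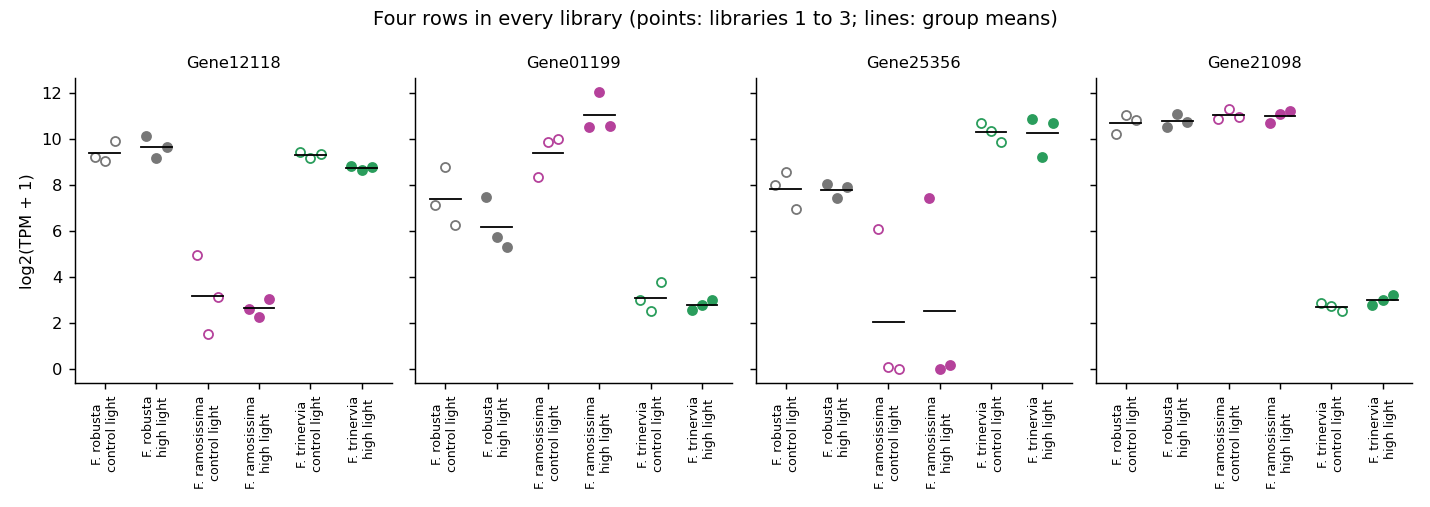
Log2(TPM + 1) of the 4 printed rows in every library (points, filled for high light and open for control light) with group means (lines), n = 3. Gene12118 is low in F. ramosissima alone, Gene01199 and Gene21098 are low in F. trinervia, and Gene25356 is near 0 in all libraries of F. ramosissima except number 1 at each light level.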

How the data were processed

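Leaf RNA was sequenced as paired-end reads of 150 bp. The authors deposited 1 table of TPM values for all libraries; the submitters' processing notes name RSEM and edgeR without versions, and the sources used here give neither the reference nor the matching of rows between species. Column names were read as species, light level (H as high light, L as control light) and replicate. Of 30041 rows, 1 with a run-on value was left out.

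Values were transformed to log2(TPM + 1), on which fold changes of low rows are understated. The 23162 rows whose mean reached 1 TPM in 1 or more of the 6 groups were fitted with limma (version 3.58.1, R 4.3.3; lmFit, eBayes with trend), all tests two-sided, leaving 12 residual degrees of freedom. All groups share 1 spread per row in it. The Benjamini-Hochberg adjustment ran over these rows, with a threshold of 0.05. The median difference and the gap between the blocks were compared by exact permutation over 20 assignments. The same permutation of 7 library values, including the class shares, gave p = 0.1 for each, the smallest possible. No test is read from it for the class shares, since the classes were set on these libraries. The scripts were tested on simulated data. The alternatives were a pseudocount of 0.1, no filter, a filter at 5 TPM, 3 other scalings, the replicate number as a block, the 6 libraries alone, species weights and leaving out each high-light library of the 2 species. Leaving out each of their control-light libraries was added after seeing the data. The members, blocks and rules, including the rule for printed rows (in each block, the largest difference in each direction among rows called in both fits, with separate groups and at least 5 TPM in each), were chosen with earlier results of these data known. Gene lists could not be used, as no row carries a name.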

Additional observations from a re-analysis of the deposited data

Results flagged for a closer look

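The difference between F. trinervia and F. ramosissima changed with light in 443 members by the test of the change itself (limma interaction of species and light, adjusted p of 0.05 over 23162 rows), which is 3.84% of members where 3.02% of all rows fitted passed. In 278 of them the difference was more negative under high light and in 165 more positive. Leaving out 1 of the 12 libraries behind it gave 112 to 727 such members. No group held enough libraries to look for single outlying ones by rule.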

How the results depend on the processing

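Leaving out 1 of the 12 libraries of F. trinervia and F. ramosissima (the control-light ones chosen after seeing the data) put the number of members called between 5952 and 6905 (6753 with all libraries; 3071 to 3613 up to 19000, 2862 to 3292 above), the median difference between 0.478 and 0.597, the share of calls that were higher between 74.0% and 78.0%, the calls repeated under control light between 4745 and 5339, the gap in the members' share of TPM between 14.7 and 15.4 percentage points, and the members whose difference changed with light between 112 and 727. Without F. trinervia high light 2 and control light 3 together, a setting chosen after seeing the data, 260 changed with light. Median-ratio scaling gave a median of −0.0536, 45.2% of calls higher (2835 higher, 3436 lower, against 5162 and 1591) and 739 members changed with light, and quantile normalization 0.761 and 711. With members set to the same sum the median was 0.351, and with a pseudocount of 0.1 it was 0.668. Species weights gave 135 members changed with light. At 5 TPM in both groups fewer rows are members, of which 3651 were called (2000 and 1651 by block) and 2728 repeated under control light, and the gap in TPM share was 16.0 percentage points. Under high light, same-numbered libraries of the 2 species did not deviate together (r = 0.131, −0.0127 and −0.141). With the replicate number as a block 6959 members were called. Since depth is unknown, no counting interval can be given for low values.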

Other observations

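Libraries of F. trinervia deviated together across light levels. Over the 11539 members, the deviations from the group mean of high light 2 and control light 3 correlated with r = 0.799 and those of high light 1 and control light 1 with r = 0.669, while high light 2 and control light 1 gave −0.753. In F. ramosissima the 9 such values lay between −0.375 and 0.267. In F. trinervia, high light 2 and control light 2 gave −0.606, and high light 3 and control light 3 gave −0.613. A block by replicate number therefore does not follow the pattern in this species. The limma model takes all libraries as independent, and the part of this pattern in the change with light was not tested. These correlations are across genes, which are not independent, and deviations within a group of 3 sum to 0.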
